A study of Mus musculus with 24 samples.

Results

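The accessibility of 10 Wnt effector and target genes was described in mouse embryonic stem cells from 24 lists of ATAC-seq peaks, a measure in which a transposase inserts adapters into open DNA. The 10 genes were Axin2, Lef1, Tcf7, Tcf7l1, Tcf7l2, Ctnnb1, Sp5, Nkd1, Cdx1 and Ccnd1, of 21938 protein-coding genes in GENCODE vM21. They were taken by name from a list of Wnt effectors and targets, with no measured value in the rule, because Chd8 is a reported repressor of β-catenin targets. All 10 were found in the annotation. A promoter was the sequence within 1 kb of an annotated transcription start, and a locus was the gene body with 30 kb on either side. Accessible sites were compared in windows that reach 250 bp to either side of a peak summit. The 10 loci held 340 of the 233754 windows that at least 2 libraries called.

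The cells were of the E14 line with CTCF, the DNA-binding protein that anchors chromatin loops, fused to an auxin-inducible degron (AID), so that the auxin IAA leads to its degradation. The libraries formed 4 sets with 12 groups of 2. In the set of CTCF lines, the line labelled overexpressed control was taken both untreated and after 12 h with IAA, and the lines that overexpress wild-type or mutated CTCF were sampled after 12 h of IAA. In the Chd4 set and in the Chd8 set, CTCF-AID cells without IAA carried the hairpin shluci or a hairpin named shRNA1 or shRNA2 for the remodeller gene. In the serum set, CTCF-AID cells labelled as in serum were sampled without IAA and after 12 h. The labels give neither the change in mutated CTCF nor the sequences of the hairpins, and peak lists cannot show how far Chd4, Chd8 or CTCF was depleted, so degradation stands here for IAA treatment of the degron line. They do not say whether the libraries of a group came from separate cultures, so the spread between them may be technical. The growth protocol lists 3 μM CHIR99021 in a serum-free medium for every library, also for the 4 whose labels say serum. Which medium the serum set had is therefore uncertain.

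In Wnt signalling, β-catenin escapes the destruction complex, enters the nucleus and binds DNA through factors of the TCF/LEF family, which repress target genes when β-catenin is absent. CHIR99021 inhibits the kinase GSK3 and so stabilises β-catenin, a signal that helps to keep mouse embryonic stem cells self-renewing, mainly by relieving repression by Tcf7l1. Chd8 and Chd4 are ATP-dependent chromatin remodellers, and Chd4 is the motor of the NuRD complex.

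List lengths differed between the sets. The Chd8 set had the longest lists, with 135410 to 166697 peaks, and the serum set the shortest, with 59786 to 82502. Those of the CTCF lines held from 120137 to 155087 peaks and those of the Chd4 set from 80619 to 141742. Within each set the lists were reduced to the strongest peaks by −log10 p, as many as the shortest list held, so that levels are compared within a set unless a common length of 59786 is named. The promoters of the 8 embryonic stem cell markers examined, Pou5f1, Sox2 and Nanog among them, were called in all 8 libraries of the CTCF lines. In all libraries of a set, 7 of the 8 were called in the serum set, 6 in the Chd8 set and 2 in the Chd4 set, and the Pou5f1 promoter was called in 3 of 6 and 1 of 6 libraries of the last pair. In the CTCF lines, promoters of 3 of 4 endoderm, 4 of 4 neural, 4 of 4 trophoblast and 4 of 4 fibroblast markers were also called in all 8, so promoter calls do not separate these cell types. In the CTCF lines, 5 libraries had and 3 lacked a peak at a nuclear sequence that shares 84.1% of its 20-base words with the mitochondrial genome, and this split crosses the groups.

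The promoter windows of the members often held a TCF/LEF site. The core site of TCF/LEF factors, CTTTGAT on either strand, occurred in a promoter window of 7 of the 10 genes, compared with 8.40% of the 16103 protein-coding genes that have a promoter window. The 7 were Axin2, Tcf7, Ctnnb1, Sp5, Nkd1, Cdx1 and Ccnd1, while none of the promoter windows of Lef1, Tcf7l1 and Tcf7l2 held the core. Windows were placed by their centre, and the Ctnnb1 core itself lay 1074 bp from the nearest start. Its window was centred at 972 bp and called in 5 libraries. The list was drawn up of known Wnt effectors and targets, so this count describes the list. Over all windows at the 10 loci, 36 of 340 (10.6%) held the core, beside 8.14% of all windows. Stretches of accessible promoters with the core are shown first because the core is the sequence that TCF/LEF factors bind. They are given on the plus strand of GRCm38 (mm10), from the RefSeq copy of the genome, with the core in capitals.
Sp5, chr2:70474789-70474855: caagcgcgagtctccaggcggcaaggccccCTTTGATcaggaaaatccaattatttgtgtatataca
Nkd1, chr8:88521241-88521307: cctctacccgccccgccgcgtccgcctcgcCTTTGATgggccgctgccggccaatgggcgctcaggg
Ccnd1, chr7:144939875-144939941: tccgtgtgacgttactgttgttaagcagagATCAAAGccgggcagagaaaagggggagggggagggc
Tcf7, chr11:52283338-52283404: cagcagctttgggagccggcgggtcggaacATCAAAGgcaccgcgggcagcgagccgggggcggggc
Axin2, chr11:108923042-108923108: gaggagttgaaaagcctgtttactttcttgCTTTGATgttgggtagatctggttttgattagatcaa
The centre of the core lay upstream of the nearest start in each of these 5, by 101 bp in Sp5, 80 bp in Nkd1, 39 bp in Ccnd1, 357 bp in Tcf7 and 106 bp in Axin2. For Ccnd1 this is upstream of the start at position 144939869 that was used here, and inside the annotated gene, which reaches further. The core of the printed Sp5 stretch lies in a window called in 10 libraries, which ends within the stretch, and a further Sp5 promoter window, centred 240 bp past the start and called in 17, held another core. The Axin2 stretch belongs to the second of its 2 annotated starts, and the window around it was called in 8 libraries. A window at the first start of Axin2 also held the core and was called in 20 libraries.

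Away from promoters, windows with the core were called in as few as 2 and as many as 24 libraries. The next pair of stretches is shown because their windows were called most widely among these, in 24 and 22 of the 24 libraries.
Lef1, 25694 bp upstream, chr3:131084879-131084945: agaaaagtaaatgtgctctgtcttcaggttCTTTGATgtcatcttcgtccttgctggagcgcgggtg
Tcf7l2, 29284 bp upstream, chr19:55712276-55712342: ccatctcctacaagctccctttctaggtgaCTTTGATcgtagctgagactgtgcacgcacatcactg
Of the 340 windows, 5 were called by all 24 libraries (1.47%), beside 3.72% of all windows. Besides the Lef1 window just shown, these were a window next to it upstream of Lef1, the promoter of Tcf7l1, a coding exon of Tcf7l2 and a window upstream of Cdx1 that lies inside Pdgfrb.

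The promoters of the 10 genes were called in 198 of 240 gene and library pairs, unevenly over the sets. In the CTCF lines all 80 pairs were called, beside 69.8% over all protein-coding genes. The serum set had 35 of 40 (87.5%, all genes 65.3%), the Chd8 set 51 of 60 (85%, all genes 64.1%) and the Chd4 set 32 of 60 (53.3%, all genes 48.3%). At the common length of 59786 peaks the shares were 93.8%, 87.5%, 65% and 48.3% in the same order, beside 62.7%, 65.3%, 53.6% and 42.8% over all genes. With peaks of −log10 q of at least 10 the pairs called were 119 of 240. The share over all genes at that limit is not given, so this fall cannot be called particular to the members.

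In GRCm38 the effectors are Ctnnb1 (chr9:120929216-120960507), Tcf7l1 (chr6:72626378-72789254), Lef1 (chr3:131110471-131224356), Tcf7l2 (chr19:55741820-55933654) and Tcf7 (chr11:52252371-52283014). The targets are Axin2 (chr11:108920349-108950783), Nkd1 (chr8:88521354-88594884), Sp5 (chr2:70474923-70477729), Cdx1 (chr18:61018862-61036199) and Ccnd1 (chr7:144929931-144939925). Tcf7l1 had 79 windows at its locus, the most of the 10, and Nkd1 had 10, the fewest.

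Among the effectors, Ctnnb1 encodes β-catenin itself, and its promoter was called in 19 libraries. In its own reduced lists the Chd8 set had the call in 5 of 6 libraries and the Chd4 set in 2 of 6, and at the common length these were 0 of 6 and 1 of 6. Tcf7l1, the main TCF repressor of stem cells, was the only member with a promoter called in all 24 libraries. The percentile of its strongest promoter peak within a list, where 100 is the strongest, lay between 95.3 and 98.0 in the CTCF lines. In the serum set it lay between 63.4 and 89.2, but percentiles from lists of unequal length are not comparable between sets. Lef1 and Tcf7l2, which activate targets together with β-catenin, were called in 23 and 21 libraries. The promoter of Tcf7, a factor that is itself induced by Wnt, was called in 16 libraries, with percentiles from 28.1 to 72.2 in the CTCF lines. In the Chd8 set it was called in a single shluci and a single shRNA2 library.

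Among the targets, Axin2, a negative feedback scaffold of the destruction complex, was called in 20 libraries. Nkd1, an inhibitor that binds Dishevelled, was called in 18, with percentiles of 87.7 to 93.7 in the CTCF lines. Cdx1, a homeobox gene of the caudal family, was called in 22, and Ccnd1, which encodes cyclin D1, in 18. The 6 libraries without a Ccnd1 call were the 6 of the Chd4 set. As deposited, the list of the second shRNA1 library of that set held a weak Ccnd1 promoter peak, at a percentile of 6.51. The promoter of Sp5, a zinc finger gene that acts downstream of Wnt, was called in 8 of 8 libraries of the CTCF lines, 5 of 6 of the Chd8 set, 4 of 6 of the Chd4 set and 0 of 4 of the serum set, and these numbers were the same at the common length. In the serum lists as deposited, both 12 h libraries had a weak Sp5 promoter peak, at percentiles of 16.6 and 19.3, and neither 0 h library did.

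**Figure D1:**
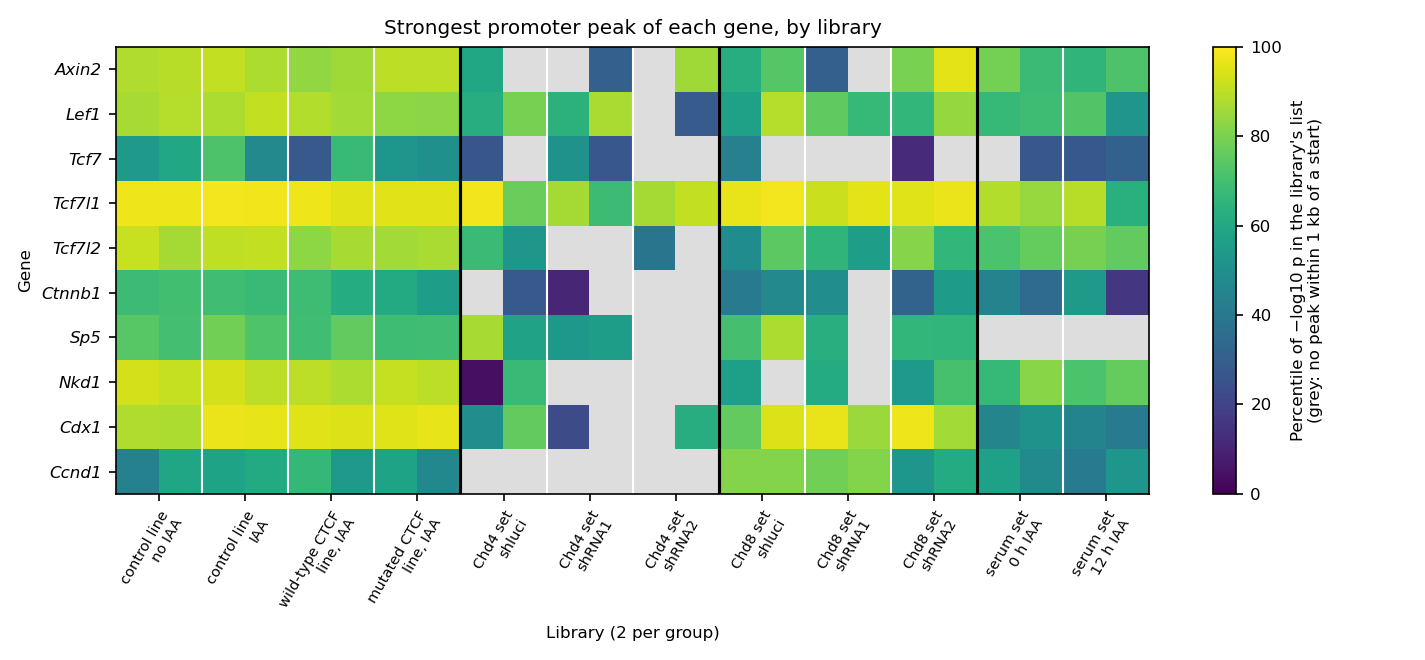
Strongest promoter peak of the 10 genes (rows) in the 24 libraries (columns, 2 per group), coloured by its percentile of −log10 p within the library's reduced list, with grey where no peak lies within 1 kb of a start. All 80 cells of the CTCF lines are coloured, Ccnd1 is grey in the 6 libraries of the Chd4 set and Sp5 is grey in the 4 of the serum set.

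The Chd8 set was examined first. A window was called lost when both shluci libraries and no shRNA library called it, and gained when all 4 shRNA libraries and no shluci library did. Of the 97 windows at the loci that both shluci libraries called, 4 were lost (4.12%, exact binomial 95% interval 1.13 to 10.2), beside 3.43% of all such windows in the genome. Of the 66 windows that all 4 shRNA libraries called, 0 were gained (interval up to 5.44%), beside 2.48% of all such windows. Both intervals contain the genome-wide value, and they cover the counting of windows only. No promoter of the 10 genes was lost (0 of 8 called in both shluci) or gained (0 of 5 called in all 4 shRNA). The same measures over all protein-coding promoters were 0.386% lost and 0.346% gained.

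The 4 lost windows lay at 4 different genes, all away from promoters. They were chr11:108961596-108962096, 38665 bp past the nearest start of Axin2 and downstream of the gene, chr7:144954606-144955106, 14987 bp upstream of Ccnd1, chr6:72670973-72671473 in an intron of Tcf7l1, and chr3:131225314-131225814 downstream of Lef1. Their peaks were weak, with mean percentiles in the shluci lists of 34.0, 33.1, 28.0 and 20.9. All 4 remained lost with the lists at their deposited length, and none did with all lists at the common length, with peaks of −log10 q of at least 10 or with peaks that cover 50% of the window. None of the 4 windows held the TCF/LEF core. The 81 bp at the centre of the strongest of these, Axin2 and Ccnd1, are shown on the plus strand so that the absence of the core there can be read.
Axin2, chr11:108961806-108961886: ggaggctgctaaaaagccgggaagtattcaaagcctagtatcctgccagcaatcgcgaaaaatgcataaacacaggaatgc
Ccnd1, chr7:144954816-144954896: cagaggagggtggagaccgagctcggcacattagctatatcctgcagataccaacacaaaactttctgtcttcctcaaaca
Of the 8 windows with the core that both shluci libraries called, 0 were lost, beside 3.76% of all such windows.

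Each hairpin alone, where 2 libraries were set against 2 and the rule is looser, had more windows that met it. With shRNA1, 10 of 97 windows were lost (10.3%, all windows 9.69%) and 4 of 93 were gained (4.30%, all windows 7.04%). With shRNA2, 6 of 97 were lost (6.19%, all windows 7.34%) and 8 of 111 were gained (7.21%, all windows 10.2%). Of the 8 gained with shRNA2, 6 lay at Tcf7l1, which held 40 of the 111.

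At the level of whole loci, Sp5 was the member whose groups did not overlap. Its locus had 6 and 7 windows called with shluci, 3 and 2 with shRNA1 and 5 and 4 with shRNA2. All 4 shRNA libraries lay below both shluci libraries, by 3 windows in the mean (6.5 ± 0.707, SD, n = 2, against 3.5 ± 1.29, SD, n = 4). The exact permutation test, two-sided, gave p = 0.133, with an adjusted p of 1 over 20528 genes, and the smallest p this design allows is 0.0667. This was 1 of 10 members lower, beside 3.3% of all genes, and 0 of 10 higher, beside 3.04%. At the common list length the Sp5 counts were 3 and 3 with shluci, 3 and 2 with shRNA1 and 4 and 3 with shRNA2, so the groups overlapped. At that length Axin2 was the member with groups apart, with 6 and 8 windows with shluci, 4 and 4 with shRNA1 and 5 and 4 with shRNA2. The share of all genes apart at that length is not given, so this count cannot be set against it. The Sp5 promoter was called in both shluci, both shRNA2 and a single shRNA1 library.

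In the lists reduced within the set, the effectors and the other targets overlapped between shluci and the shRNA libraries. Ctnnb1 had 7 and 8 windows with shluci, 10 and 6 with shRNA1 and 8 and 7 with shRNA2. Axin2 had 13 and 15, then 13 and 10, then 15 and 12. Cdx1 had 15 and 16, then 11 and 13, then 13 and 15, so that its highest shRNA library equalled its lowest shluci library. Lef1 had 20 and 26, then 29 and 23, then 21 and 19. The median difference between the shRNA and shluci means was −1 window over the members and 0 over all genes.

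Between the hairpins, 4 members had more windows in both shRNA2 than in both shRNA1 libraries (Tcf7l1, Tcf7l2, Sp5 and Ccnd1), beside 22% of all genes, and 1 had fewer (Lef1), beside 3.8%. Tcf7l1 had 45 and 44 windows with shluci, 40 and 38 with shRNA1 and 48 and 47 with shRNA2. Both shRNA1 libraries lay below and both shRNA2 libraries above the shluci libraries, and this difference was not tested. At the common length the counts were 25 and 28, then 21 and 23, then 26 and 28, so that shRNA2 overlapped shluci. The strongest Axin2 promoter peak stood at percentiles of 62.5 and 73.4 with shluci, at 80.0 and 95.9 with shRNA2 and at 30.5 in 1 shRNA1 library, while the other shRNA1 library had no peak. Of the 5 members with a promoter call in all 6 libraries, Ccnd1 had lower percentiles in every shRNA library (81.6 and 81.4 with shluci, 78.7 and 81.4 with shRNA1, 52.7 and 61.6 with shRNA2). The second shRNA1 value lay below the lower shluci value by less than the rounding, and 6.55% of all promoters were lower by this measure. None of the 5 was higher, beside 4.41% of all promoters.

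**Figure D2:**
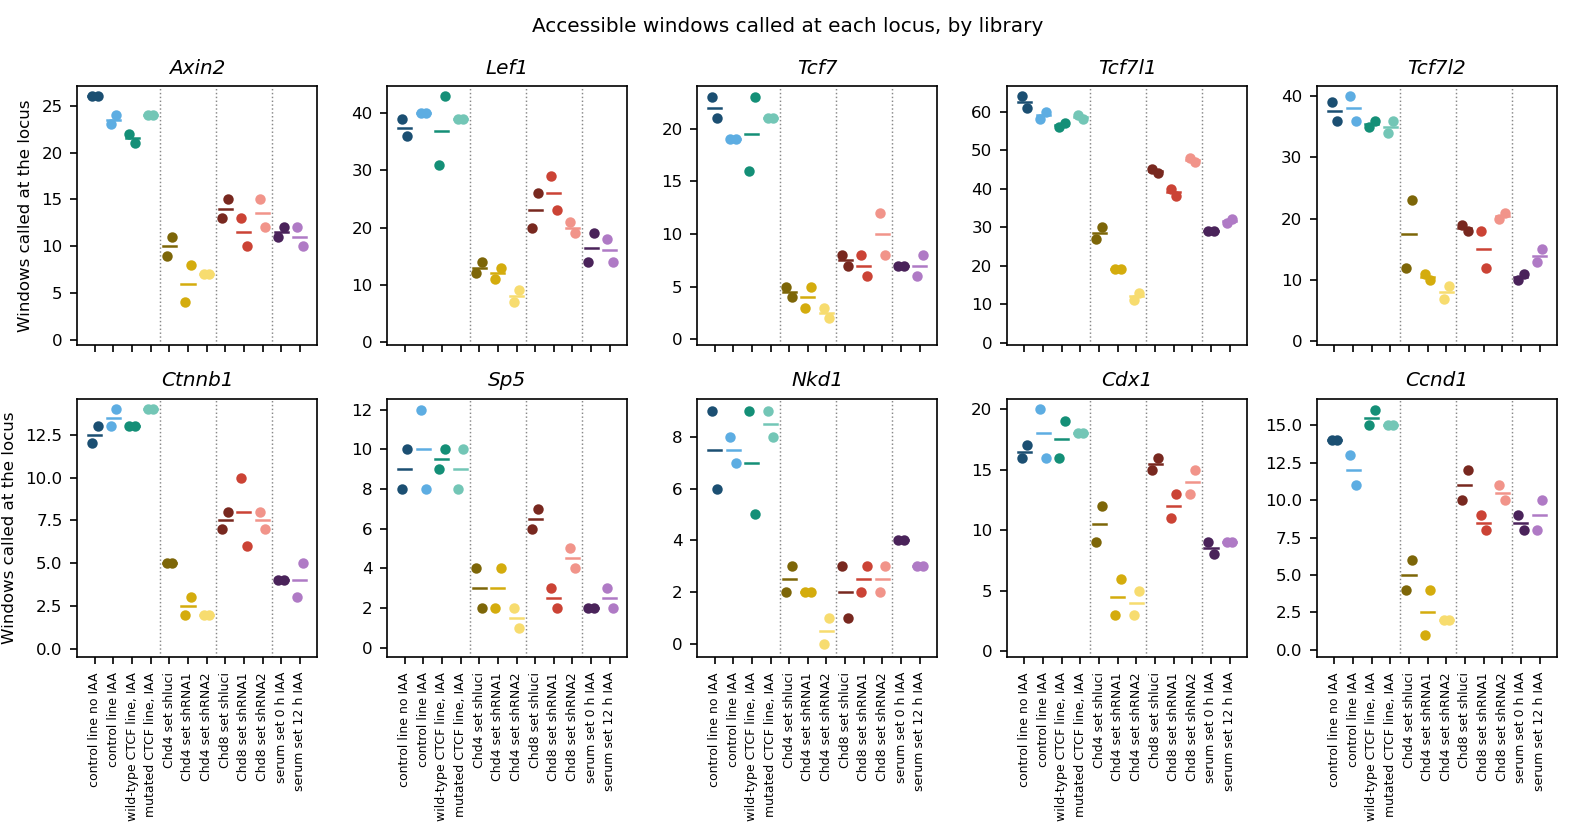
Number of windows called at the locus of each gene (vertical axis) in the 12 groups (horizontal axis), with a point per library and a line at the mean of 2. Dotted lines separate the 4 sets, whose lists differ in length. In the Chd8 set the Sp5 counts are 6 and 7 with shluci and 2 to 5 with the hairpins, and in the Chd4 set Tcf7l1 goes from 27 and 30 with shluci to 11 to 19.

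In the Chd4 set the share of windows lost at the loci lay above that of the genome in the reduced lists. Of 67 windows that both shluci libraries called, 17 were lost in all 4 shRNA libraries (25.4%, interval 15.5 to 37.5), beside 14.2% of all windows. At deposited list length 15 of 83 were lost (18.1%, interval 10.48 to 28.0), and this interval contains the 12.5% of all windows. At the common length 14 of 49 were lost (28.6%, interval 16.6 to 43.3), beside 16.2%. Of 9 windows called in all 4 shRNA libraries, 2 were gained (22.2%, interval 2.81 to 60.01), beside 14% of all such windows. With shRNA1 alone 23 of 67 were lost (all windows 24.2%) and 7 of 31 gained (all windows 22.8%). With shRNA2 alone 36 of 67 were lost (53.7%, all windows 28.7%) and 2 of 22 gained (all windows 25.9%).

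The shift was visible in the number of windows called at the 10 loci. It was 89 and 110 with shluci, 58 and 74 with shRNA1 and 44 and 51 with shRNA2, so all 4 shRNA libraries lay below both shluci libraries (99.5 ± 14.8, SD, n = 2, against 56.8 ± 12.8, SD, n = 4). As shares of the 340 windows this was 26.2% and 32.4% with shluci and 12.9% to 21.8% with the hairpins. Over all windows in the genome the shares were 28.4% and 29.6%, then 25.0% to 26.9%. Before reduction the lists of the Chd4 set were unequal within each group, with 135583 to 141742 peaks in one library and 80619 to 93091 in the other, and the share lost at deposited length is the one given above.

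Of the 10 members, 5 had fewer windows in every shRNA library than in either shluci library, beside 22.3% of all genes, and 0 had more, beside 4.33%. Tcf7l1 had 27 and 30 windows with shluci, 19 and 19 with shRNA1 and 11 and 13 with shRNA2. Tcf7l2 had 12 and 23, then 11 and 10, then 7 and 9, and its shluci libraries differed from each other by more than the group means did. Ctnnb1 had 5 and 5, then 2 and 3, then 2 and 2. Among the targets, Cdx1 had 9 and 12, then 3 and 6, then 3 and 5, and Axin2 had 9 and 11, then 4 and 8, then 7 and 7. For each of the 5 the exact permutation test gave p = 0.0667, the smallest this design allows, with an adjusted p of 0.333. Of the 5, Tcf7l1, Tcf7l2 and Cdx1 also had groups apart at the common list length, where Axin2 and Ctnnb1 touched. The share of all genes apart at that length is not given. The median difference was −2.88 windows over the members and −0.75 over all genes.

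The other 5 members overlapped. Lef1 had 12 and 14 windows with shluci, 11 and 13 with shRNA1 and 7 and 9 with shRNA2. Ccnd1 had 4 and 6, then 1 and 4, then 2 and 2, and 3 of its 4 windows called in both shluci libraries were lost. Sp5 had 4 and 2, then 2 and 4, then 2 and 1, and its promoter was called in both shluci and both shRNA1 libraries and in neither shRNA2 library. Nkd1 had 2 and 3, then 2 and 2, then 0 and 1. Its promoter was the only member promoter lost in all 4 shRNA libraries (1 of 6, beside 4.4% of all promoters), and 0 of 1 was gained (all promoters 1.72%). In the first reduced shluci list the percentile of the Nkd1 promoter was 4.25. The loss of the Nkd1 promoter does not hold in the deposited lists, where a library with shRNA1 and a library with shRNA2 had a peak there, at percentiles of 40.7 and 17.3.

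The strongest lost window of the Chd4 set lay in the intron of Cdx1, 1306 bp from its start, with a mean percentile of 88.1 in the shluci lists. Of the windows called with shluci, 2 of 7 with the TCF/LEF core (all such windows 15.9%) and 2 of 3 with the CTCF consensus described below (all such windows 13.1%) were lost. The Cdx1 window held both, was called by 20 of the 24 libraries and by none of the 4 with a Chd4 hairpin. It was also lost at the common list length and with peaks of −log10 q of at least 10. A promoter window of Tcf7l2, 745 bp upstream of a start, was lost with a mean percentile of 58.1, also at the common length, but neither shluci library called it with −log10 q of at least 10 or with 50% cover. In the other direction, chr11:108959601-108960101 downstream of Axin2 was called by each of the 4 shRNA libraries and by neither shluci library, with a mean percentile of 95.8 in the shRNA lists. It lay 36670 bp past the nearest Axin2 start, and 17 libraries of the series called it. With peaks that cover 50% of the window, 0 of the 4 shRNA libraries called it. The Axin2 window lost in the Chd8 set, chr11:108961596-108962096, was lost in the Chd4 set too, with calls in both shluci and 0 of the 4 shRNA libraries.

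**Figure D3:**
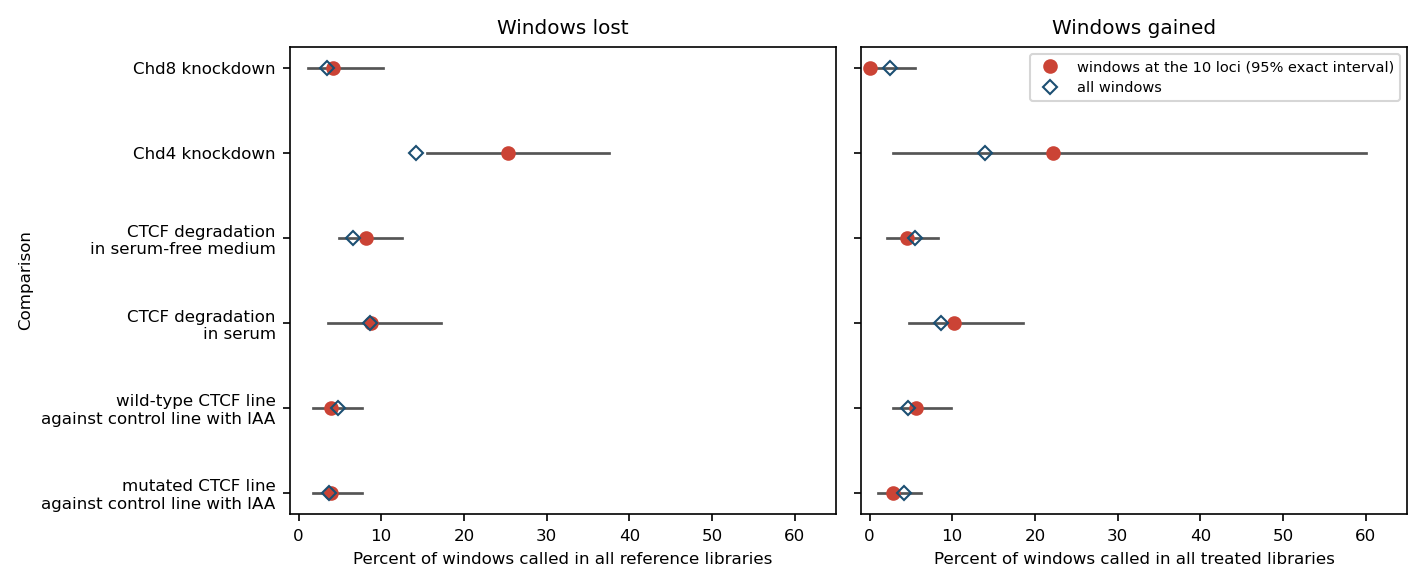
Percent of windows lost (left) and gained (right) in the 6 comparisons, with red circles for the windows at the 10 loci, bars for the exact binomial 95% interval and blue diamonds for all windows. The loss in the Chd4 set, 25.4% beside 14.2%, is the value whose interval excludes that of all windows in these reduced lists.

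Degradation of CTCF in the serum-free control line left all 10 promoters called, with 0 of 10 lost (all promoters 0.511%) and 0 of 10 gained (0.589%). Of 221 windows called in both libraries without IAA, 18 were lost in both with IAA (8.14%, interval 4.90 to 12.6), beside 6.6% of all windows. Of 201 windows called in both libraries with IAA, 9 were gained (4.48%, interval 2.07 to 8.33), beside 5.51%. The balance turned at the common length, where 6 of 111 were lost (5.41%, all windows 6.41%) and 9 of 119 gained (7.56%, all windows 5.53%). The lost windows included 5 of the 11 that carry the CTCF consensus, a 14 bp motif searched on both strands with at most 1 mismatch. Over the genome, 34.9% of such windows with the consensus and 4.75% of those without it were lost. At the loci the consensus was about as common as elsewhere, in 17 of 340 windows (5%) beside 5.56%. Of the 21 windows with the TCF/LEF core that were called without IAA, 0 were lost, beside 5.57% of all such windows. The strongest lost window lay in an intron of Tcf7l2, at chr19:55908978-55909478, with a mean percentile of 56.7 and no CTCF consensus. The strongest gained window, at chr3:131137016-131137516 in an intron of Lef1, held the TCF/LEF core and had a mean percentile of 52.5.

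The CTCF sites of Tcf7, Axin2 and Tcf7l1 are shown because their windows were lost with IAA in the control line and called again in a line with exogenous CTCF, which is how they were chosen. The consensus match is in capitals, on the plus strand.
Tcf7, 14579 bp upstream, chr11:52297517-52297590: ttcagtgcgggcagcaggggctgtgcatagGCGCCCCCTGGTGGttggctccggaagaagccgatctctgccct
Tcf7l1, intron, chr6:72647461-72647534: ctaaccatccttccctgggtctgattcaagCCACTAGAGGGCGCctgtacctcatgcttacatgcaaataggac
Axin2, 11035 bp upstream, chr11:108909285-108909358: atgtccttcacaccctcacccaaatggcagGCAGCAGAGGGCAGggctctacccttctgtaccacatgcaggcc
Axin2, intron, chr11:108925364-108925437: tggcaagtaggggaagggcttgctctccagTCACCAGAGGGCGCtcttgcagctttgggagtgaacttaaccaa
The fifth lost window with the consensus, chr3:131227812-131228312 downstream of Lef1, met the same choice, with a call in 1 library with wild-type and 0 with mutated CTCF, and is not printed. The Tcf7 and Tcf7l1 sites matched the consensus without a mismatch and the Axin2 sites with 1. Each of the 4 windows was called by 2 of 2 libraries without IAA and 0 of 2 with IAA. With wild-type CTCF the Tcf7 window was called by 2 of 2 libraries, the Tcf7l1 window by 2, and each Axin2 window by 1. With mutated CTCF the Tcf7 and Tcf7l1 windows and the intronic Axin2 window were called by 2 of 2 libraries, and the upstream Axin2 window by 0. The labels do not say what the mutation changes, and the lines were not compared by a test at single windows.

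After degradation, 4 of 10 members had fewer windows in both IAA libraries, beside 11.7% of all genes, and 1 had more, beside 12.7%. The balance of directions depended on the setting, with 1 lower and 1 higher at the common length and 2 lower and 3 higher with 50% cover. The shares of all genes at these settings are not given. Axin2 had 26 and 26 windows without IAA and 23 and 24 with it. Tcf7 had 23 and 21, then 19 and 19, Tcf7l1 had 64 and 61, then 58 and 60, and Ccnd1 had 14 and 14, then 13 and 11. Lef1 had more, with 39 and 36, then 40 and 40. For each of these the exact permutation p was 0.333, the smallest that 2 against 2 allows, so none could pass 0.05, and the adjusted p was 1. The Cdx1 promoter stood at percentiles of 88.1 and 87.6 without IAA and of 97.0 and 96.2 with it. It was also above 94 in the wild-type and mutated lines with IAA, at 95.2, 94.7, 95.3 and 96.4. With Tcf7l1 it was 1 of 2 members with higher promoter percentiles in both IAA libraries, beside 25.3% of all promoters, and 0 members were lower, beside 16.8%.

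For the lines with exogenous CTCF the reference was the control line after IAA, whose 2 libraries both comparisons share. With wild-type CTCF, 8 of 201 windows were lost (3.98%, all windows 4.82%) and 11 of 196 were gained (5.61%, all windows 4.65%). At the common length this balance turned, with 8 of 119 lost (6.72%, all windows 4.48%). There 2 of 100 were gained (2%, all windows 3.9%). At deposited length 4 of 203 were lost (1.97%, all windows 2.95%) and 16 of 229 gained (6.99%, all windows 6.6%). With mutated CTCF, 8 of 201 were lost (3.98%, all windows 3.63%) and 6 of 208 were gained (2.88%, all windows 4.21%). For this line the balance turned at deposited length, with 4 of 203 lost (1.97%, all windows 2.46%). There 12 of 228 were gained (5.26%, all windows 6%). No member promoter was lost or gained with wild-type CTCF (0 of 10 each, all promoters 0.589% and 0.402%) or with mutated CTCF (0 of 10 each, all promoters 0.463% and 0.398%). Of the member windows with the consensus, 2 of 7 were gained with wild-type CTCF (all such windows 23.1%) and 3 of 9 with mutated CTCF (all such windows 18.1%). With wild-type CTCF, 2 members had fewer windows in both libraries, Axin2 (23 and 24, then 22 and 21) and Tcf7l1 (58 and 60, then 56 and 57), beside 14.5% of all genes. Ccnd1 had more (13 and 11, then 15 and 16), as did 7.49% of all genes. The direction turned with list length, with 0 lower and 4 higher at deposited length and 4 lower and 0 higher at the common length. With mutated CTCF, Lef1 had fewer (40 and 40, then 39 and 39), as did 8.89% of all genes, and Tcf7 (19 and 19, then 21 and 21) and Ccnd1 (then 15 and 15) had more, beside 10.4%. Here too the balance moved, from 0 lower and 3 higher at deposited length to 2 lower and 1 higher at the common length. For both lines the shares of all genes at these lengths are not given. Within the libraries that had the mitochondrial-like peak, where the comparison is of 1 library with 1 and the rule looser, 17.9% of member windows were lost with wild-type CTCF (all windows 17.4%) and 14.5% with mutated CTCF (13.6%). Within those that lacked it the values were 17.9% (15.9%) and 15.4% (14.7%). After degradation in the control line only libraries with the peak could be compared, 2 with 1, and 12.2% of windows were lost (11.1%). Ccnd1 stood at 14 and 14 windows without IAA, at 13 and 11 with IAA, and at 15 or 16 with IAA and either exogenous form of CTCF.

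**Figure D4:**
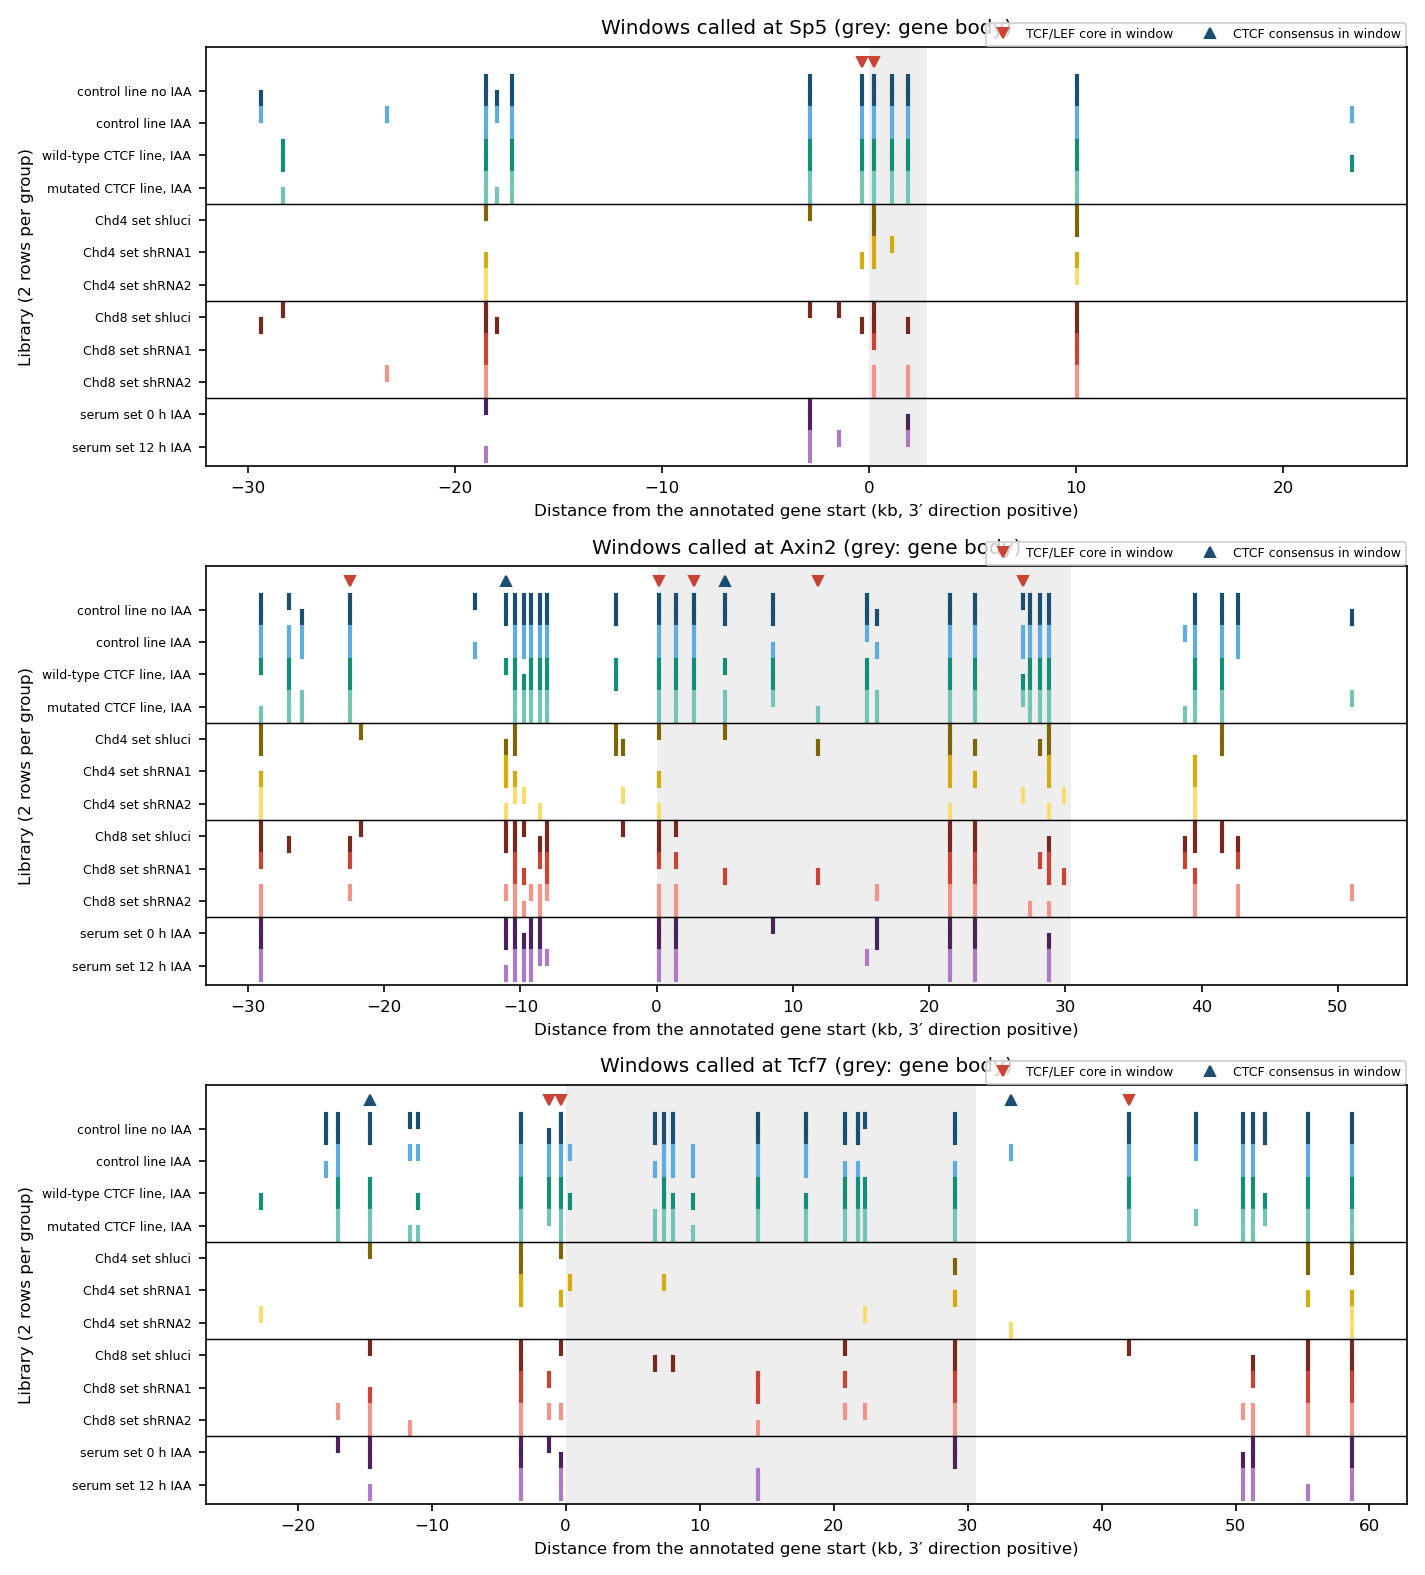
Windows called at Sp5, Axin2 and Tcf7 in the 24 libraries (2 rows per group), with a tick per called window at its distance in kb from the annotated start and grey for the gene body. Red triangles mark windows with the TCF/LEF core and blue triangles windows with the CTCF consensus. The promoter window at Sp5 is called in the 8 libraries of the CTCF lines and in none of the reduced lists of the serum set, and the Tcf7 window 14579 bp upstream is missing only with IAA in the control line among the CTCF lines.

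In the serum set, 7 of 80 windows were lost after 12 h of IAA (8.75%, interval 3.59 to 17.2), beside 8.61% of all windows, and 9 of 88 were gained (10.2%, interval 4.78 to 18.5), beside 8.66%. No promoter was lost (0 of 8, all promoters 0.772%) or gained (0 of 9, all promoters 0.796%). Of the 6 windows with the CTCF consensus, 1 was lost, the intronic Tcf7l1 window shown above, beside 40.8% of all windows with the consensus. The Tcf7 window upstream was called by 2 libraries at 0 h and 1 at 12 h, as was the Axin2 window upstream. Nkd1 had fewer windows (4 and 4, then 3 and 3), as did 9.61% of all genes. Tcf7l1 (29 and 29, then 31 and 32) and Tcf7l2 (10 and 11, then 13 and 15) had more, beside 11.7%. Tcf7l1 thus lay lower after IAA in the serum-free line and higher after IAA in serum, and the difference was not tested. It does not hold at the common length, where Tcf7l1 had 40 and 41 windows without IAA and 41 and 43 with it in the serum-free line.

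The serum set differed from the CTCF lines at Sp5. With all lists at the common length, 8 member promoters were called in all 8 libraries of the CTCF lines, and 1 of them, Sp5, was called in 0 of the 4 serum libraries, beside 0.732% of all promoters. This holds for the reduced lists, since the deposited lists of both 12 h libraries hold the weak Sp5 peak given above. In the other direction 0 of 8 differed, beside 1.85%. Of 84 windows called in all 8 libraries of the CTCF lines, 19 were called in no serum library (all windows 16.6%), and of 61 called in all 4 serum libraries, 3 were called in none of the CTCF lines (all windows 8.83%). At Sp5 these 19 included the promoter window centred 240 bp past the start, which holds the core, an intronic window 1098 bp from the start and a window 10062 bp downstream. The Axin2, Nkd1, Lef1, Cdx1 and Ccnd1 promoters were called in all 4 serum libraries. Medium, cell line and library preparation cannot be told apart between these sets.

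At the common length the windows called at the 10 loci were most in the CTCF lines, with 112 to 140, then in the serum set, with 99 to 108. The Chd8 set had 62 to 81 and the Chd4 set 37 to 85, ranges that overlap. As shares of the 340 windows the sets had, in this order, 32.9% to 41.2%, 29.1% to 31.8%, 18.2% to 23.8% and 10.9% to 25.0%. Over all windows in the genome the shares had a like order, with 32.7% to 36.7%, 29.8% to 32.0%, 21.1% to 26.2% and 20.2% to 23.5%, so the order is not particular to the loci. The Sp5 locus had 3 to 8, 2 to 3, 2 to 4 and 0 to 4 windows in these sets. Ctnnb1 had 4 to 8, 3 to 5, 2 to 4 and 1 to 5. Ccnd1 had 7 to 9, 8 to 10, 2 to 10 and 1 to 6, and its first 3 sets overlapped.

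The other 72 Wnt genes, listed by role, were read in the same way. Their ligands, such as Wnt3a, receptors, such as Fzd5, destruction complex, such as Apc, and feedback inhibitors, such as Rnf43, were examined with the loci defined as above. In the Chd8 set 0 of 72 had fewer windows in every shRNA library and 2 had more, the receptor gene Lgr5 and the ligand gene Wnt8a (all genes 3.3% and 3.04%). In the Chd4 set 24 of 72 (33.3%) had fewer, among them Axin1, Csnk1a1, Rnf43 and Myc, and 0 had more (all genes 22.3% and 4.33%). Of 267 windows at their loci 45 were lost in the Chd4 set (16.9%, all windows 14.2%), a lower share than the 25.4% of the 10 members, and this difference was not tested. After CTCF degradation in serum-free medium 11 had fewer (15.3%, all genes 11.7%) and 10 more (13.9%, all genes 12.7%). In serum 7 had fewer (9.72%, all genes 9.61%) and 15 more (20.8%, all genes 11.7%). With wild-type CTCF 18 had fewer (25%, all genes 14.5%) and 5 more (6.94%, all genes 7.49%). With mutated CTCF 3 had fewer (4.17%, all genes 8.89%) and 5 more (6.94%, all genes 10.4%). No promoter of the 72 was lost or gained in the Chd8 set (all promoters 0.386% and 0.346%), and 2 of 39 were lost in the Chd4 set (all promoters 4.4%).

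Genes whose promoter calls over the 24 libraries were most like those of a member were sought over all protein-coding genes. For Sp5, Aqp8 had the same call in 24 of 24 libraries, and Osm and Itgb6 in 23. For Axin2, 4 genes matched in all 24, among them Nova2, Pam16 and Rac3. For Ctnnb1, 7 genes matched in all 24, and for Tcf7 the best matches, Kirrel2, Arap3 and Eps8l1, had the same call in 21. Lef1 shared its pattern with 1159 genes, because it was missing from a single library. The libraries of a set share their list length, so a likeness of calls partly follows the sets.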

How the data were processed

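ATAC-seq was deposited as 1 narrowPeak list per library. Trim Galore, Bowtie2, MACS2, deepTools and the build mm10 are named, with no roles or versions, per the submitters' processing notes. For each peak the authors deposited a summit, a fold enrichment (ratio, not used here) and −log10 p and −log10 q. The lowest −log10 q was 1.30 to 1.31 in the lists. The lists hold no read counts, so the depth behind a call is unknown, and an uncalled site is below the list's limit, not closed.

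Within each set, lists were reduced to the length of the shortest by −log10 p. Summits were merged into windows reaching 250 bp to either side, and those called by at least 2 libraries were kept. A window was lost when all reference and no treated libraries called it, and gained in the mirror case. Groups were apart when every treated library lay above or below every reference library. Window numbers per locus were tested with the two-sided exact permutation test and Benjamini-Hochberg adjustment over 20528 genes. The smallest p that 2 libraries against 2 can give is 0.333, and 2 against 4 can give 0.0667, and so a call at 0.05 was not possible. Binomial intervals are exact (Clopper-Pearson, 95%) and treat windows as independent, which neighbours are not.

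Genes came from GENCODE vM21 and sequence from the RefSeq GRCm38 genome, whose chromosome lengths hold all 2958411 peaks. The members and the gene lists were chosen with earlier results of these data known. Some windows were named for a TCF/LEF core, a CTCF site or the Sp5 contrast with serum. The others named one by one are among the 4 with the highest mean percentile per comparison and direction, or were called by all 24 libraries. The CTCF sites, the Sp5 windows set against serum and the printed sequences were chosen after their values were seen. Python 3.11.15, NumPy 2.4.6, SciPy 1.17.1, numba 0.67.0 and pysam 0.24.0 were used, and the calls were tested on simulated data. Alternatives were list length, −log10 q of at least 10, 50% cover, 10 kb flanks, the replicate block and leaving out each library.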

Additional observations from a re-analysis of the deposited data

Results flagged for a closer look

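Ctnnb1 had 2, 3, 2 and 2 windows in the 4 libraries with a Chd4 hairpin, so the gap of the highest library to the next was 1 of the whole range of 1. The counts are small and tied.

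Tcf7l1 had 2.5 more windows after IAA in the serum set and 3.5 fewer after IAA in the serum-free control line, a difference of 6 windows that was not tested. At the common list length the opposite directions do not hold, with 40 and 41 windows without IAA and 41 and 43 with it in the serum-free line, and 29 and 29, then 31 and 32 in serum.

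Tcf7l1 had 47.5 ± 0.707 windows (SD, n = 2) with Chd8 shRNA2 and 39 ± 1.41 (SD, n = 2) with shRNA1, a difference of 8.5 that was not tested. The 45 and 44 windows with shluci lay between. At the common length shRNA2 had 26 and 28, shRNA1 21 and 23 and shluci 25 and 28, so that shRNA2 overlapped shluci.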

How the results depend on the processing

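With 2 libraries a group no locus could pass 0.05, so these values describe the calls only. Of the values recomputed with other settings, without a library left out, 95 stayed and 33 moved. A share stayed when it lay within the exact 95% interval of the reported share, and a count when it was within 1.5 times the reported count. Promoters of the members called, 198 as reported, were 119 with −log10 q of at least 10, where the share over all genes is not given. Loci with groups apart after Chd8 knockdown, 1 as reported, numbered 2 at deposited length, 0 with −log10 q of at least 10, 0 with 50% cover, 2 with 10 kb flanks and 2 with the replicate block. The share of all genes with groups apart is given for the reported setting only, so counts at other settings cannot be set against it. Replicate numbers did not pair the libraries (correlation of deviations −0.188 to 0.0414). The replicate block gave 7, 6, 3, 3 and 4 loci apart for Chd4, degradation in serum-free medium, in serum, wild-type and mutated CTCF, and crossed numbers, added after seeing the data, gave 4 and 4 for the last pair. Windows lost after Chd8 knockdown were 0% at the common length (of 47, all windows 2.75%), 0% with −log10 q of at least 10 (of 20, all windows 2.86%) and 0% with 50% cover (of 5, all windows 2.41%). After Chd4 knockdown the loci apart, 5 as reported, were 3 at deposited length, 3 at the common length and 1 with 50% cover, lost windows were 83.3% with −log10 q of at least 10 (10 of 12, all windows 45.2%) and 66.7% with 50% cover (2 of 3, all windows 57.1%), and gained windows 100% with −log10 q of at least 10 (1 of 1, all windows 16.7%). The interval of the Chd4 loss contained the share of all windows at deposited length (18.1%, all windows 12.5%) and with 50% cover. After CTCF degradation in serum-free medium the loci apart, 5 as reported, were 2 at the common length, 3 with −log10 q of at least 10 and 2 with 10 kb flanks, with 2 lower and 3 higher at 50% cover, and in serum, 3 as reported, 6 with 50% cover. With wild-type CTCF the loci apart, 3 as reported, were 1 with −log10 q of at least 10 and 0 with 10 kb flanks, their direction went from 0 lower and 4 higher at deposited length to 4 lower and 0 higher at the common length, and gained windows were 2% at the common length. With mutated CTCF the loci apart, 3 as reported, were 1 with −log10 q of at least 10 and 5 with 50% cover. Lost windows were 1.46% with −log10 q of at least 10 (all windows 1.53%). The libraries were also split by the mitochondrial-like peak after seeing the data. With wild-type CTCF, those with the peak had 17.9% of windows lost (all windows 17.4%) and 13.1% gained (14.4%). Those lacking it had 17.9% lost (15.9%) and 16.9% gained (14.9%). With mutated CTCF the values were 14.5% (13.6%) and 16.6% (14.8%) with the peak, and 15.4% (14.7%) and 14.4% (14.5%) without it. The cause of these shifts was not tested, but fewer peaks enter the stricter settings by construction.

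Leaving out 1 library loosens the rules by construction, and the shares over all windows and genes are not given for it. Without either shluci library of the Chd8 set 11.7% or 12.3% of windows were lost, and without the second 6.06% were gained. Lost windows ranged from 4.12% to 12.3% for Chd8, 26.9% to 35.8% for Chd4, 8.80% to 15.4% for degradation in serum-free medium, 14.1% to 17.5% in serum, 8.46% to 12.4% for wild-type and 7.23% to 9.76% for mutated CTCF. Gained windows ranged from 1.18% to 6.06%, 12.5% to 22.2%, 7.66% to 11.4%, 16.0% to 20.5%, 7.21% to 11.7% and 6.58% to 9.62% in the same order, and loci apart from 1 to 4, 5 to 8, 6 to 8, 3 to 7, 5 to 7 and 3 to 8.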
